A study of Mus musculus with 178 samples.

Results

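The comparison followed here was between Day 17 and Day 9 in the blood of the mice that responded to anti-PD-1. Each responder was its own control: 14 mice had a library on both days, and these 28 libraries of 178 in the series (14 of 45 mice) were chosen by the response, day and ear tag that the labels give. All groups used here were young adult C57BL/6J mice that carried tumors of 4MOSC1, a cell line from a carcinogen-induced squamous cell carcinoma of the mouse mouth, injected into the tongue or the buccal mucosa, and all received an antibody against PD-1 (clone RMP1-14). The paper states that mice of both sexes were used. In the 28 responder libraries 4 Y-linked genes had a summed count of 0 and Xist at least 1688, as in female mice. The libraries of non-responders were not checked for this. Blood was drawn from behind the eye on Days 4, 9, 17 and 24 after implantation. Day 4 preceded treatment, and Days 9 and 17 were on treatment, whose first day differs between the sources. A mouse was called a responder or a non-responder from the later course of its tumor. The 29 non-responders with both days served as a second group, and 1 further responder without a Day 17 library entered no paired test. A mouse labelled as a responder on 1 day and as a non-responder on the others was left out of both groups. The question was what changed in the blood of responders between the early and the middle on-treatment time point, and whether it changed otherwise than in non-responders.

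No untreated and no tumor-free mice were among the samples, so the effects of time, tumor and antibody cannot be told apart. The tumor came from a single cell line. The p-values measure the spread between mice. In whole blood, fewer cells of a type and less RNA per cell cannot be told apart.

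PD-1 is an inhibitory receptor of activated T cells, and antibodies that block it release T cells from this brake. Blood taken whole holds red cell precursors and reticulocytes, platelets, granulocytes, monocytes and lymphocytes, and each leaves its own transcripts in the RNA. Classical monocytes, which express Ccr2 and Ly6c2, leave the bone marrow for inflamed tissue and tumors. Heat shock chaperones fold proteins, serve newly activated and stressed cells, and are switched on together by the factor HSF1. The Apol genes of the mouse encode relatives of apolipoprotein L, several of which are induced by interferon.

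Depth was similar on both days. The total estimated counts of a Day 9 library lay between 33774996 and 56259064.9, and those of a Day 17 library between 26058958 and 59194857.1. Haemoglobin transcripts took 76.7% to 87.2% of the counts on Day 9 and 73.0% to 87.3% on Day 17, and the share differed by 0.126 ± 4.59 percentage points between the days (SD, n = 14, exact sign-flip permutation test, two-sided p = 0.921). All other genes together held 4797391 to 11557081 counts on Day 9 and 4536691.9 to 12551681.9 on Day 17. Mitochondrial transcripts rose from 4.00% ± 0.529 to 4.62% ± 0.798 of these other counts (SD, n = 14, higher in 12 of 14 mice, exact sign-flip permutation test, two-sided p = 0.00146). This rise was not seen in TMM-scaled CPM. There the sum of 13 genes of the mitochondrial genome had medians of 3084 on Day 9 and 2993 on Day 17, higher in 7 of 14 mice. Of 24 markers of mouth epithelium, the tissue around the tumor, 3 were at 0 in all 28 libraries, and the sum of the list was between 5.92 and 64.2 CPM on Day 9 and between 4.77 and 15.9 CPM on Day 17. The ear tags of the mice had either 4 digits (10 of the 14 responders, 6 of the 29 non-responders) or 3 digits (4 responders, 23 non-responders). What the form of the tag stands for is not given in the sources used here, so several results are also given within the tag series. Levels are given as CPM, the count of a gene relative to the size of its library after TMM scaling over the 59 responder libraries, and are compared within a gene only. Changes are log2 fold changes with their standard error from a paired fit (edgeR), and a gene was called when its adjusted p was at most 0.05.

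In responders 953 of 11785 genes tested were called (8.09%), with 395 higher on Day 17 (3.35%) and 558 lower (4.73%). At a fold change of at least 1.5, 37 genes rose and 150 fell. By tag series these were 132 and 113 with 4-digit tags and 11 and 136 with 3-digit tags, so that falls outnumbered rises at this fold in the latter series but not in the former. The median change over all genes was 0.00 on the log2 scale. Chaperones and their helpers were prominent among the rising genes with the smallest p, and Apol genes and genes of monocytes among the falling ones. The plot of all genes shows both groups.

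**Figure D1:**
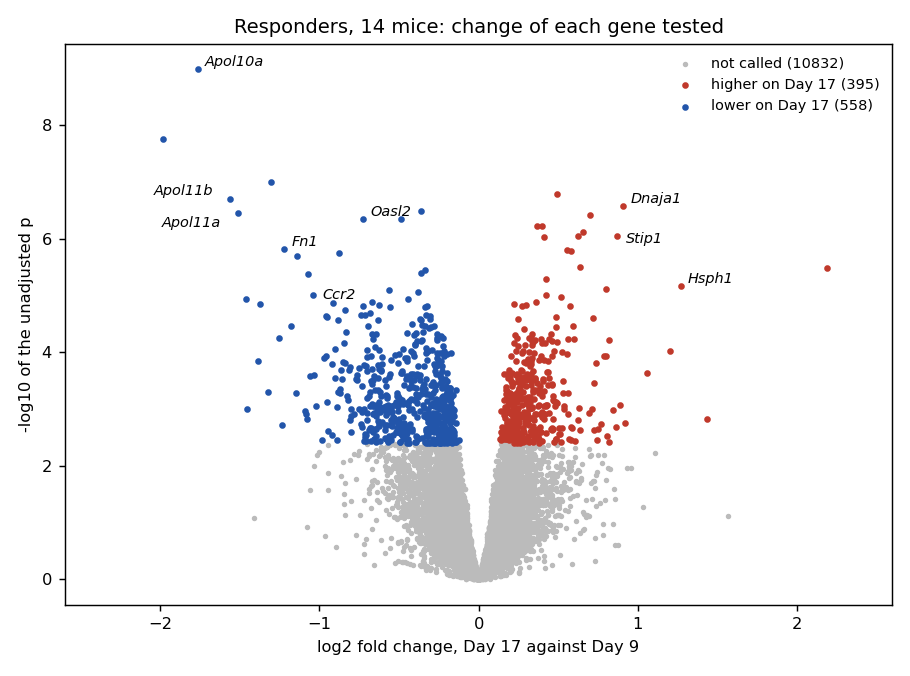
Change of each of the 11785 genes tested in the 14 paired responders. The horizontal axis is the log2 fold change from Day 9 to Day 17, the vertical axis is -log10 of the unadjusted p, and red and blue points are the 395 genes called higher and the 558 called lower on Day 17. Apol10a has the smallest p on the falling side, and Dnaja1, Stip1 and Hsph1 stand out among the rising genes.

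Heat shock chaperones rose. Of 18 tested genes of this list 12 were called higher and none lower, and the median change over the 18 was 0.51, beside 0.00 over all genes. Hsph1, an HSP110 that helps HSP70 release its clients (ENSMUSG00000029657.15, GRCm38 chr5:149614287-149636376, minus strand), was at 4.15 to 7.56 CPM on Day 9 with a median of 5.30. On Day 17 it was at 3.43 to 24.5 CPM with a median of 14.7. It was higher in 12 of 14 mice, by 1.27 ± 0.20 (SE, n = 14, edgeR adjusted p = 0.00279), and the 2 days overlapped only through low values on Day 17. Dnaja1, an HSP40 that hands clients to HSP70 (chr4:40722150-40737149, plus strand), went from 10.5 to 17.9 CPM (median 12.8) to 12.1 to 33.9 CPM (median 26.2), a change of 0.91 ± 0.11 (edgeR adjusted p = 0.000488, higher in 13 of 14 mice). Stip1, which links HSP70 to HSP90, went from 5.41 to 9.08 CPM (median 6.45) to 6.18 to 19.4 CPM (median 12.4) and was higher in all 14 mice (0.87 ± 0.12, edgeR adjusted p = 0.000638).

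Other genes named by the same rule were partners of HSP90 or of client proteins. Fkbp4, a prolyl isomerase of HSP90 complexes with steroid receptors, rose by 0.70 ± 0.09, and Ahsa2, an activator of the HSP90 ATPase, by 0.72 ± 0.13. Chordc1, an HSP90 partner, rose by 0.64 ± 0.10. Cacybp, which bridges client proteins and ubiquitin ligases, rose by 0.66 ± 0.09. The constitutive HSP70 gene Hspa8 lay between 79.9 and 139 CPM on Day 9 and between 89.5 and 260 CPM on Day 17, with medians of 111 and 172 CPM, and rose by 0.59 ± 0.11 (edgeR adjusted p = 0.00568). Hspe1, the lid of the mitochondrial chaperonin, was at 2.49 to 3.70 CPM on Day 9 and 2.94 to 6.56 CPM on Day 17. It was higher in all 14 mice (0.63 ± 0.09, edgeR adjusted p = 0.000638).

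The remaining called members of the list, named here after their values were seen, were Hspa1b, Hsp90aa1, Hsp90ab1, Hspd1, Dnajb1 and Hsf1, the gene of the heat shock factor itself. Their changes ran from 0.23 ± 0.06 for Hsf1 to 1.44 ± 0.38 for Hspa1b, the inducible HSP70. Hspa1b has a near-identical neighbour, Hspa1a (1.03 ± 0.50, edgeR adjusted p = 0.200), so the split of reads between the pair is uncertain. The chaperone of the endoplasmic reticulum Hspa5 (0.08 ± 0.14) and the cochaperone Bag3 (0.05 ± 0.14) did not pass the test. Of the 8 subunits of the cytosolic chaperonin, a set also chosen after its values were seen, 5 were called higher, among them Cct3 (0.49 ± 0.06, higher in all 14 mice), and none was called lower.

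The rise of chaperones was carried by the mice with 4-digit tags. In the 10 of them, Hsph1 was at 4.15 to 7.56 CPM on Day 9 and at 13.5 to 24.5 CPM on Day 17, so that the days did not overlap and all 10 mice were higher. In the 4 mice with 3-digit tags, responders 12 to 15, Hsph1 was at 4.17, 4.47, 5.95 and 5.96 CPM on Day 9 and at 6.79, 8.17, 5.49 and 3.43 CPM on Day 17, higher in 2 and lower in 2. The change was 1.68 in the former and 0.16 in the latter, and the difference between the series was 1.51 ± 0.26 (SE, edgeR adjusted p = 0.00262). The median change of the list was 0.63 with 4-digit tags and -0.07 with 3-digit tags, and the change of 12 of the 18 chaperones was called larger with 4-digit tags, in a test added after the data had been seen that called 235 of 11785 genes. Hspe1 was an exception: its change was 0.63 with 4-digit and 0.62 with 3-digit tags, the latter not called alone (edgeR adjusted p = 0.990 for the difference between the series). Summed over the list, responders with 4-digit tags were at 285 to 377 CPM on Day 9, 469 to 704 CPM on Day 17 and 261 to 449 CPM on Day 24, after 294 to 482 CPM on Day 4. Those with 3-digit tags were highest on Day 4, at 337 to 477 CPM, and reached at most 336 CPM on Day 9, 332 CPM on Day 17 and 369 CPM on Day 24. On Day 17 the lowest mouse of the former (469 CPM) stood above the highest of the latter (332 CPM). The part of the tag series in the rise was not tested further.

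**Figure D2:**
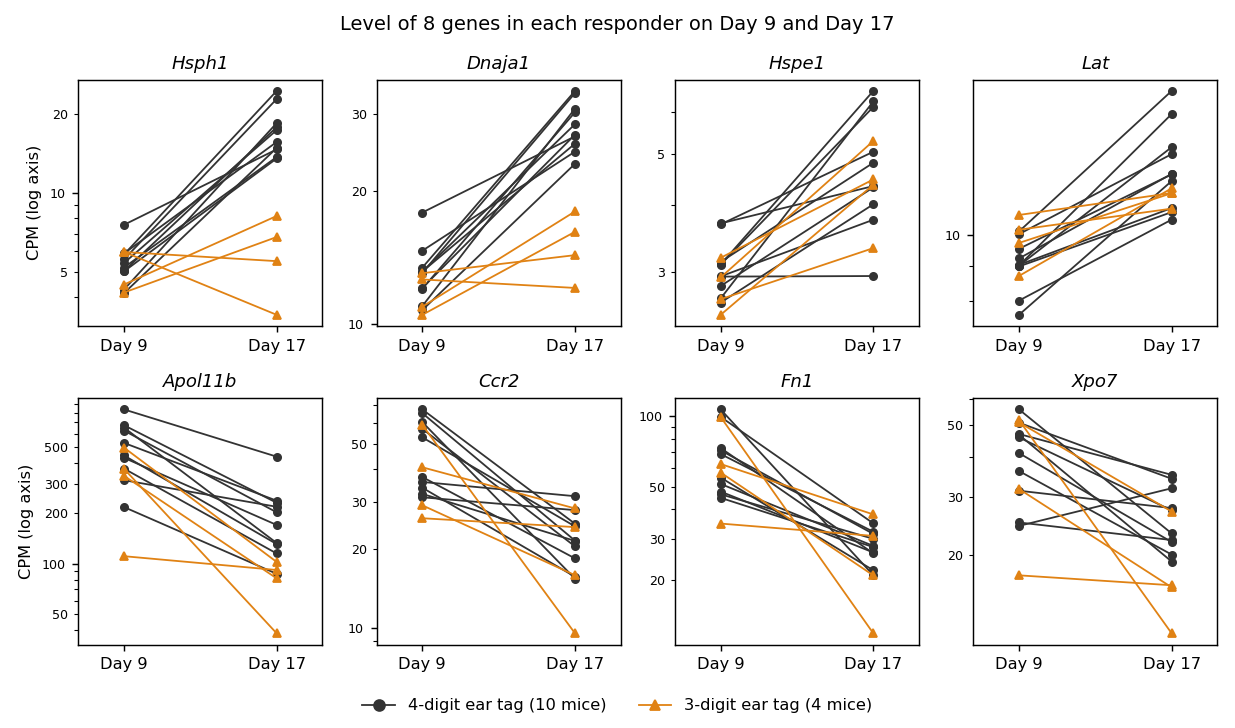
Level of 8 genes in each of the 14 responders on Day 9 and Day 17. The vertical axes are CPM on a log scale, each line joins the 2 libraries of a mouse, and circles and triangles mark 4-digit (10 mice) and 3-digit (4 mice) ear tags. The circles of Hsph1 and Dnaja1 climb more than the triangles, whereas the lines of Hspe1 run up and those of Apol11b, Ccr2 and Fn1 run down in both series.

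The sequences at the starts of 3 of the leading chaperone genes are shown because they hold the binding motif of HSF1. The heat shock element was searched as GAA, TTC and GAA with any 2 bases between neighbours, and on the other strand as TTC, GAA and TTC, in windows from 250 bases before to 50 after each RefSeq start (GRCm38.p6). It was found in 198 of 32851 windows (0.603%) and, counted by gene, in 179 of 27025 genes (0.662%). Of the 12 rising genes with the smallest p at a fold change of at least 1.5, 9 had a window and 3 of these held the motif, and of the chaperone list 4 of 15 did. The sequences are written 5′ to 3′ on the strand of the gene, and the capitals mark the motif, with overlapping matches merged.
Hspe1: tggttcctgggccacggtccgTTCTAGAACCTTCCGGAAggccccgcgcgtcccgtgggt
Chordc1: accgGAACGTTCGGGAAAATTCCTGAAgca
Hsph1: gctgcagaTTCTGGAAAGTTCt
The Hspe1 stretch is chr1:55088038-55088097 on the plus strand, with its first match 89 bases before the start. The Chordc1 stretch is chr9:18292259-18292288 on the plus strand, with 3 matches from 4 bases before the start. The Hsph1 stretch is chr5:149636287-149636308 on the minus strand, with its match 36 bases after the start. A match in these letters is a description and not a measured binding site.

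Genes of the Apol cluster of chromosome 15 were among the falls with the smallest p. Apol11b (chr15:77633946-77643286, minus strand) was at 111 to 836 CPM on Day 9 with a median of 436, and at 38.3 to 436 CPM on Day 17 with a median of 132. It was lower in all 14 mice, by -1.56 ± 0.19 (SE, n = 14, edgeR adjusted p = 0.000466), although the ranges of the 2 days overlapped. Apol10a (ENSMUSG00000050982.13, chr15:77477047-77491069, plus strand) was at 0.713 to 8.74 CPM on Day 9 and at 0.255 to 2.80 CPM on Day 17, and it was also lower in all 14 mice (-1.77 ± 0.15, edgeR adjusted p = 1.24e-05). Apol11a (chr15:77508271-77518051, plus strand) went from 0.737 to 12.2 CPM to 0.211 to 4.18 CPM and was lower in 13 of 14 mice (-1.51 ± 0.19, edgeR adjusted p = 0.000488). The transcribed pseudogene Apol10c-ps fell by 1.98 on the log2 scale (SE 0.21, edgeR adjusted p = 0.000105). The mouse with the lowest Apol11b on Day 9, responder 12, also had the lowest level of the red cell gene Xpo7 (17.3 CPM). On Day 17 this was responder 15 (11.5 CPM). Responder 8, highest for Apol11b on both days, had Xpo7 at 50.8 and 34.2 CPM, below the highest (55.8 and 35.2 CPM). Whether the Apol genes followed red cell genes was not tested.

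Of 13 Apol genes annotated in the cluster (chr15:77044729-77757003), 5 were tested and these 4 were the ones called. Apol7e, the fifth, was 0.20 ± 0.08 higher and not called (edgeR adjusted p = 0.112). The falls did not rest on a tag series: Apol11b changed by -1.41 with 4-digit and by -1.99 with 3-digit tags, and Apol10a by -1.73 and -1.89, although with 4 mice neither passed the test alone (edgeR adjusted p = 0.13 and 0.097). The starts of the 3 coding genes are shown because they are near copies of one another.
Apol10a: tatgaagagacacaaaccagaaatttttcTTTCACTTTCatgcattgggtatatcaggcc
Apol11a: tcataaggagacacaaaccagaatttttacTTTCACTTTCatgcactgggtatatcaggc
Apol11b: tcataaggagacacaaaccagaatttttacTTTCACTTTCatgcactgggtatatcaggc
They lie at chr15:77476967-77477026 (plus), chr15:77508189-77508248 (plus) and chr15:77643307-77643366 (minus), with the capitals 51, 50 and 50 bases before the RefSeq start. The capitals mark the interferon element, searched as GAAA, any 2 bases and GAAA, or on the other strand TTTC, any 2 bases and TTTC. It was present in 3.44% of all windows and, counted by gene, in 3.99% of genes. In the type I interferon list, 19 of the 32 genes that had a window held it. Apol10b, too low to be tested (Day 9 median 0.0529 CPM), held it too, although its upstream bases matched those of Apol10a at 28.5% of 249 only. Over the 250 bases before the start, Apol11a and Apol11b were identical (100.0%) and Apol10a matched both at 84.7% of 249 bases after a shift of 1 base. The transcripts of these genes were not compared, and how the authors' counting split reads between such copies is not given in the sources used here, so values of the single genes are uncertain.

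Of 44 tested genes of the type I interferon list 3 fell and none rose, with a median of -0.07, a share of falls near the 4.73% over all genes. Oasl2, an antiviral 2'-5' oligoadenylate synthetase-like protein, was at 22.5 to 54.9 CPM on Day 9 (median 46.8) and at 16.7 to 39.8 CPM on Day 17 (median 24.7). It fell in 13 of 14 mice (-0.72 ± 0.09, edgeR adjusted p = 0.000488), by -0.71 and -0.75 in the 2 tag series. Oas3, a sensor of double-stranded RNA, fell by 0.32 on the log2 scale (SE 0.08). Ifi211 fell by 0.64 (SE 0.19), a call that was lost in 11 of the 14 fits without 1 mouse (highest edgeR adjusted p = 0.0903). The sum of the list was at 1236 to 3168 CPM on Day 9 (median 2523) and 1105 to 3595 CPM on Day 17 (median 2091), and it was higher in 4 of 14 mice. Of 29 genes induced by interferon gamma 2 rose, Gbp8 (0.42 ± 0.11) and Igtp (0.24 ± 0.07), and none fell, beside 3.35% higher over all genes. Both calls were lost in some fits without 1 mouse, 4 and 8 of 14 (highest edgeR adjusted p = 0.0525 and 0.0671). None of the 13 MHC class II genes, which present antigen to CD4 T cells, and none of the 9 class I genes was called, at medians of -0.13 and 0.06. The class II median was -0.25 with 4-digit and 0.24 with 3-digit tags.

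Genes of classical monocytes fell together. Of 28 tested 13 were called lower and none higher, the median change was -0.49, and all 14 mice had a lower summed level of these genes at the later time (862 to 1668 CPM on Day 9 and 455 to 948 CPM on Day 17). Fn1, fibronectin, a matrix protein that blood monocytes transcribe (chr1:71585520-71653200, minus strand), was at 34.8 to 107 CPM on Day 9 (median 59.9) and at 11.9 to 38.1 CPM on Day 17 (median 27.8). It was lower in all 14 mice (-1.22 ± 0.17, SE, edgeR adjusted p = 0.000968), and the ranges of the days barely overlapped. Ccr2, the chemokine receptor that brings monocytes out of the marrow, went from 26.1 to 67.3 CPM (median 39.0) to 9.58 to 31.6 CPM (median 21.5), lower in all 14 mice (-1.04 ± 0.17, edgeR adjusted p = 0.00348). Vcan, the proteoglycan versican, went from 2.96 to 15.9 CPM to 1.07 to 4.90 CPM (-1.37 ± 0.23, edgeR adjusted p = 0.00371, lower in 13 of 14). The 2 tag series changed alike in these genes: Fn1 by -1.19 and -1.32, Ccr2 by -1.06 and -0.995, Vcan by -1.35 and -1.40, and the list median was -0.43 and -0.46.

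Ccl9, a chemokine that myeloid cells secrete, fell with them (6.47 to 15.1 CPM on Day 9, 2.95 to 7.54 CPM on Day 17, -0.88 ± 0.13), and so did Olfm1, a secreted olfactomedin, in all 14 mice (-1.14 ± 0.17). Tiam1, an activator of the GTPase Rac, fell by 0.67 (SE 0.11) and the myosin Myo1d by 0.91 (SE 0.15), both in all 14 mice. Sowaha, whose ankyrin repeat protein is little described, fell by 1.46 (SE 0.24) in 12 of 14 mice. Among 18 genes of nonclassical monocytes, which patrol vessels, the median was 0.00 and 2 were called lower, beside 4.73% over all genes. These were the scavenger receptor Cd36 (13.0 to 28.0 CPM on Day 9, 7.14 to 23.3 CPM on Day 17, -0.59 ± 0.13) and the fractalkine receptor Cx3cr1 (-0.49 ± 0.12), which effector T cells and NK cells also express. Cd36 is transcribed by red cell precursors and platelets too.

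Complement and scavenger genes, made in blood largely by myeloid cells, had a median of -0.40, with 4 of 11 tested lower and none higher. Msr1, a scavenger receptor of macrophages, went from 1.49 to 6.03 CPM to 0.584 to 2.01 CPM (-1.18 ± 0.22). C3, the central complement protein, fell by 0.51 (SE 0.14), a call lost in 5 of the 14 fits without 1 mouse (highest edgeR adjusted p = 0.0651).

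**Figure D3:**
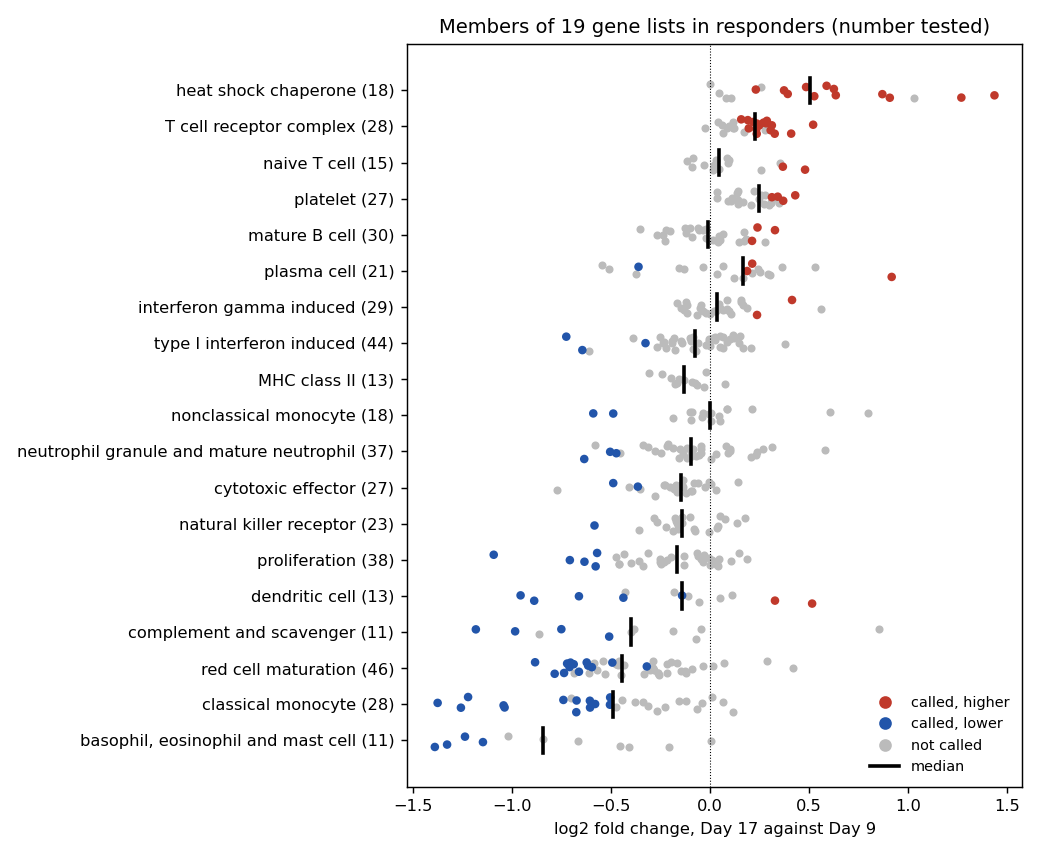
Members of 19 gene lists in the 14 responders. The horizontal axis is the log2 fold change from Day 9 to Day 17, each point is a tested gene, red and blue points were called higher and lower, the black bar is the list median, and the number tested stands in brackets. Heat shock chaperones (median 0.51) and T cell receptor genes (0.23) lie to the right, and red cell (-0.44), monocyte (-0.49) and basophil, eosinophil and mast cell genes (-0.84) to the left.

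Granulocyte lists differed in size of change. Basophil, eosinophil and mast cell genes had the lowest median of the lists in the plot of gene lists, -0.84, with 4 of 11 tested called lower and none higher. The eosinophil and mast cell lipoxygenase Alox15 went from 1.53 to 6.07 CPM (median 3.00) to 0.492 to 6.93 CPM (median 1.49), lower in 13 of 14 mice (-1.14 ± 0.27, edgeR adjusted p = 0.0176). The mast cell and basophil proteases Cpa3 (-1.39 ± 0.29) and Mcpt8 (-1.33 ± 0.31) were close to the limit of detection, with Day 9 medians of 0.316 and 0.540 CPM and Day 17 medians of 0.0940 and 0.150 CPM. Of the neutrophil list, 3 of 37 were lower and none higher at a median of -0.09, beside 4.73% lower over all genes. One was the collagenase Mmp8 of the granules (4.28 to 12.7 CPM on Day 9, 2.55 to 8.43 CPM on Day 17, -0.63 ± 0.11). The others were the NADPH oxidase subunit Cybb (-0.50 ± 0.10), which monocytes share, and Retnlg (-0.47 ± 0.13). The Retnlg call was lost in 9 of the 14 fits without 1 mouse (highest edgeR adjusted p = 0.0622). The neutrophil median was -0.01 with 4-digit and -0.37 with 3-digit tags.

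Dendritic cell genes went both ways, 2 higher and 5 lower of 13. Flt3, the receptor for the growth factor of dendritic cells, went from 0.626 to 1.58 CPM to 0.276 to 1.28 CPM (-0.89 ± 0.16), and Cd209a, a lectin of monocyte-derived and conventional dendritic cells, was lower in all 14 mice (-0.66 ± 0.15). Runx2, a regulator of plasmacytoid dendritic cells, fell by 0.44 (SE 0.10). The called risers, the chemokine receptor Ccr9 (0.52 ± 0.09) and Ly6d (0.33 ± 0.06), are also expressed by lymphocytes, Ly6d by B cells.

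Over the 14 mice together, genes of maturing red cells were lower, while the haemoglobin share was not. Of 46 tested 13 were called lower and none higher, with a median of -0.44, whereas none of the 5 haemoglobin genes tested was called (median -0.13). Xpo7, an exporter needed for the condensation of the erythroid nucleus, went from 17.3 to 55.8 CPM (median 43.4) to 11.5 to 35.2 CPM (median 22.7), lower in 13 of 14 mice (-0.72 ± 0.15, edgeR adjusted p = 0.0105). The ranges of the days overlapped. Rhag, the Rh-associated glycoprotein of the red cell membrane, went from 0.459 to 2.40 CPM to 0.343 to 2.03 CPM (-0.88 ± 0.21). The sum of the list was 16031 to 52688 CPM on Day 9 and 7628 to 46033 CPM on Day 17, with 5 of 14 mice higher. The list median was -0.24 with 4-digit tags and -0.94 with 3-digit tags. That of the haemoglobin genes was 0.13 and -0.73, so that with 3-digit tags they were lower in estimate too.

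T cell receptor genes rose, by small steps in most mice. Of 28 tested 17 were called higher and none lower, and the median was 0.23 (0.27 and 0.10 in the 2 tag series). The sum of the list had a median of 241 CPM on Day 9 and 264 CPM on Day 17 and was higher in 13 of 14 mice. Lat, the adaptor that the T cell receptor kinases phosphorylate, was at 7.62 to 10.7 CPM on Day 9 (median 9.14) and at 10.5 to 16.4 CPM on Day 17 (median 11.9). It was higher in all 14 mice (0.41 ± 0.06, edgeR adjusted p = 0.000638), and the days overlapped only at the edge. The receptor chain Cd3g (0.29 ± 0.06) and the regulator Cd5 (0.31 ± 0.06) rose as well. Il7r, the receptor for the survival factor interleukin-7, went from 12.5 to 19.5 CPM to 17.0 to 27.5 CPM and was higher in all 14 mice (0.37 ± 0.05, edgeR adjusted p = 0.000546). It was called with 1 other of the 15 naive T cell genes, Dapl1 (0.48 ± 0.12). The Dapl1 call was lost without responder 9 (edgeR adjusted p = 0.0501).

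Cytotoxic genes did not share this rise. Of 27 tested 2 fell and none rose, with a median of -0.15, beside 4.73% lower and 3.35% higher over all genes. The 2 were Cx3cr1 and Il18rap, a subunit of the interleukin-18 receptor. Il18rap was lower in all 14 mice (9.59 to 17.0 CPM on Day 9, 7.10 to 13.3 CPM on Day 17, -0.36 ± 0.07). Of the other genes of blood T cells that the study follows, those tested were not called: Gzmb, a granule protease, was at 2.79 to 4.90 CPM on Day 9 and 1.97 to 4.94 CPM on Day 17 (-0.17 ± 0.11), and Nkg7 (-0.10 ± 0.07), Tbx21 (-0.14 ± 0.08), Cxcr3 (-0.20 ± 0.11) and Cxcr6 (-0.12 ± 0.12) lay near them. Pdcd1, which encodes PD-1, was too low to be tested in responders alone, with medians of 0.200 CPM on Day 9 and 0.124 CPM on Day 17 and a lower level in 10 of 14 mice, 9 of the 10 with 4-digit tags and 1 of the 4 with 3-digit tags. It was higher in 24 of 29 non-responders, and the difference of the changes was -1.15 ± 0.30 and not called (edgeR adjusted p = 0.0528). Of 23 NK receptor genes 1 fell, Klra3 (-0.59 ± 0.17), a share near the 4.73% over all genes. Klra3 lost the call in 11 of the 14 fits without 1 mouse (highest edgeR adjusted p = 0.0894). The T_em signature of the study, genes it chose from single cells of another cohort at the early on-treatment time, was used as far as its genes were listed here under mouse symbols, and so was its B cell signature, so that both are shorter than the study's own. The T_em genes had 21 higher and 9 lower of 155 at a median of 0.01, beside 3.35% higher and 4.73% lower over all genes. Hspa8, Lat and Fyn (0.24 ± 0.05) were among the higher genes, Runx2, Il18rap and Myo1f (-0.41 ± 0.09) among the lower. Of 19 genes of inhibitory receptors and regulatory T cells 2 fell, the checkpoint receptor Vsir (-0.30 ± 0.07) and the cytokine gene Tgfb1 (-0.23 ± 0.06, a call lost in 4 of the 14 fits without 1 mouse, highest edgeR adjusted p = 0.0611). The sum of that list was lower in all 14 mice, at medians of 132 CPM on Day 9 and 119 CPM on Day 17.

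B cell genes had medians near 0 over the 14 mice and of opposite sign in the tag series. Of 30 genes of mature B cells 3 rose and none fell, at a median of -0.01 (-0.10 with 4-digit and 0.23 with 3-digit tags): the surface protein Ms4a1, which is CD20 (40.4 to 60.6 CPM on Day 9, 47.8 to 92.8 CPM on Day 17, 0.24 ± 0.06), the transcription factor Spib (0.21 ± 0.05) and Ly6d. The sum of the list was higher in 3 of 14 mice, at medians of 1506 CPM on Day 9 and 1445 CPM on Day 17. The B cell receptor genes Cd79a (-0.06 ± 0.07) and Cd79b (0.05 ± 0.07) and the coreceptor Cd22 (-0.12 ± 0.07) were not called. With 4-digit tags alone Cd22 was called lower (-0.23, edgeR adjusted p = 0.0329, lower in 9 of 10 mice), and with 3-digit tags it was higher in 3 of 4 mice (0.14, edgeR adjusted p = 0.558). The B cell signature of the study had 5 higher and 4 lower of 126, at a median of -0.03 (-0.09 and 0.15 in the 2 tag series). These counts were near the shares over all genes, 3.35% higher and 4.73% lower. Add3, a protein of the membrane skeleton, was among the falling genes of the signature (-0.20 ± 0.05). Of 21 plasma cell genes 3 rose and 1 fell, the receptor Slamf7 (-0.36 ± 0.09), at a median of 0.17. The sum of the list was higher in 2 of 14 mice only, at medians of 1480 CPM on Day 9 and 1122 CPM on Day 17. Pdia4, a disulfide isomerase of the secretory pathway, was higher in all 14 mice (0.19 ± 0.04), and the antibody gene Ighg1 went from 0.106 to 1.20 CPM to 0.544 to 2.82 CPM (0.92 ± 0.25). The Ighg1 call was lost in 7 of the 14 fits without 1 mouse (highest edgeR adjusted p = 0.0648).

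Platelet genes were higher in estimate throughout, but few passed the test. All 27 had a positive change with a median of 0.25, and 4 were called, among them the G protein subunit Gng11 (35.1 to 120 CPM on Day 9, 51.1 to 170 CPM on Day 17, 0.43 ± 0.11). Tubb1, the tubulin of platelets (0.37 ± 0.10), and Gp9, a subunit of the von Willebrand factor receptor (0.34 ± 0.10), lost the call in 10 of the 14 fits without 1 mouse (highest edgeR adjusted p = 0.0698 and 0.0846). The list median was 0.29 with 4-digit and -0.06 with 3-digit tags. Among genes of the cell cycle 5 of 38 fell and none rose, at a median of -0.16, beside 4.73% lower over all genes. Tpx2, a spindle protein, was at 0.979 to 2.19 CPM on Day 9 and 0.645 to 1.72 CPM on Day 17 (-0.58 ± 0.14), and the proliferation antigen Mki67 went from 6.63 to 27.2 CPM to 2.91 to 10.5 CPM (-0.63 ± 0.17, a call lost in 5 of the 14 fits without 1 mouse, highest edgeR adjusted p = 0.0661). With 4-digit and 3-digit tags, Tpx2 changed by -0.38 and -1.05 and Mki67 by -0.39 and -1.26. Neither gene was called within a series (edgeR adjusted p between 0.0908 and 0.108). Immediate early genes counted 3 lower of 27 (Fos, Atf3 and Egr3, each lost in 7 or 11 fits without 1 mouse, highest edgeR adjusted p = 0.0631, 0.0933 and 0.0949). Their median was 0.06 with 4-digit and -0.40 with 3-digit tags.

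The counts of risers among genes of protein synthesis and respiration were close to the 3.35% over all genes. Of 83 cytosolic ribosomal protein genes 1 rose, Rpl22l1 (0.49 ± 0.12), at a list median of 0.13 with 86.7% of the genes positive in estimate. In non-responders, where 16.9% of all genes were called higher, 65 of 83 were, at a median of 0.15, and for none of the 83 was the difference between the groups called. Of 83 nuclear genes of the respiratory chain and ATP synthase, chosen by their symbols, 2 rose, at a median of 0.03. Ndufaf4, an assembly factor of complex I, was at 0.832 to 1.32 CPM on Day 9 and at 1.25 to 2.00 CPM on Day 17, higher in all 14 mice (0.58 ± 0.08, edgeR adjusted p = 0.000968). None of the 12 tested genes of the mitochondrial genome was called, at a median of 0.04. Of other leading risers, Slc5a3, the inositol transporter that cells induce under osmotic load (0.79 ± 0.16), Tmem158 (0.82 ± 0.16) and the histone gene Hist1h2ac (0.60 ± 0.11) were each higher in at least 12 of 14 mice. Slc5a3 changed by 1.06 with 4-digit tags and by 0.11 with 3-digit tags, where 2 of 4 mice were higher.

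Levels on Days 4 and 24, given without a test in 15 responders each, place the 2 days in the course. Hsph1 had medians of 7.93, 5.30, 14.7 and 6.19 CPM on Days 4, 9, 17 and 24, and Dnaja1 of 13.4, 12.8, 26.2 and 12.0 CPM, so that the median of Day 17 stood above those of the other 3 days. Most of these mice had 4-digit tags, and in the 4 with 3-digit tags the summed chaperone list was highest in median on Day 4 (431 CPM) and not on Day 17. Apol11b had medians of 110, 436, 132 and 131 CPM, and Apol10a of 0.507, 3.11, 0.996 and 0.906 CPM, so that Day 9 was the day that stood apart. Ccr2 likewise was highest in median on Day 9, at 18.0, 39.0, 21.5 and 17.1 CPM, and so were Fn1 (34.8, 59.9, 27.8 and 25.1 CPM), Vcan (1.42, 6.94, 2.59 and 0.761 CPM) and Xpo7 (22.7, 43.4, 22.7 and 23.5 CPM). Il7r was lowest on Day 9, at 19.7, 15.9, 19.8 and 21.9 CPM, and Lat had 11.6, 9.14, 11.9 and 9.33 CPM. For the Apol genes, Ccr2 and Fn1 the Day 17 median lay closer to that of Day 4 than to that of Day 9, and for Hsph1, Dnaja1 and Stip1 the Day 17 median was the highest of the 4 days.

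**Figure D4:**
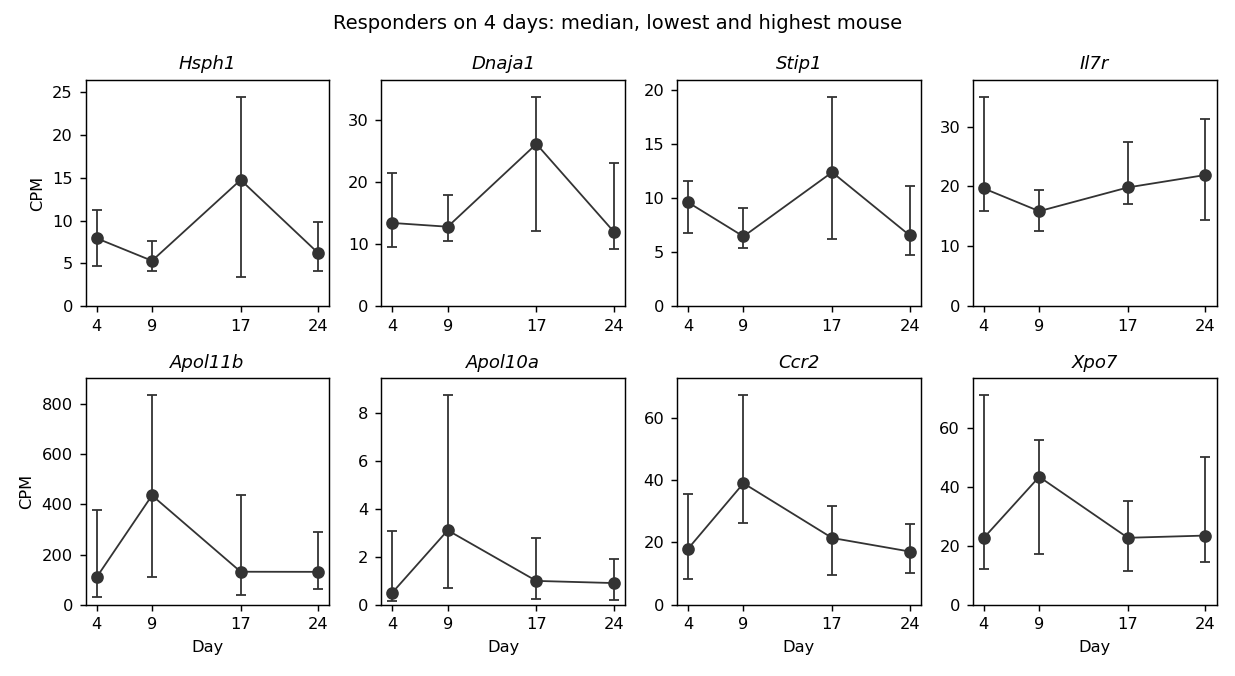
Level of 8 genes in responders on Days 4, 9, 17 and 24. The vertical axes are CPM, points are medians, and bars run from the lowest to the highest mouse (15, 14, 14 and 15 mice). Hsph1, Dnaja1 and Stip1 peak on Day 17 in median, and Apol11b, Apol10a, Ccr2 and Xpo7 on Day 9.

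In non-responders 4395 of 12427 genes were called between the same days in 29 pairs (35.4%), a comparison with more mice. Of the 395 genes that rose in responders, 394 were tested there, 267 of these were called higher and none lower. The 267 are part of 2101 genes called higher in non-responders (16.9%). Of the 558 genes that fell, 369 were called lower in non-responders, among 2294 lower genes there (18.5%), and 3 were called higher. The monocyte genes changed alike in both groups: Fn1 by -1.22 ± 0.17 in responders and -1.15 ± 0.12 in non-responders, Ccr2 by -1.04 and -0.97, and Vcan by -1.37 and -1.36, with differences between the groups of -0.07 ± 0.21, -0.08 ± 0.19 and -0.01 ± 0.30. Lat (0.41 and 0.32) and Il7r (0.37 and 0.41) were also called in both groups.

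The difference of the changes was tested as the interaction of day and response, and it was called for 89 of 13195 genes (0.674%), 28 with a larger (0.212%) and 61 with a smaller value (0.462%) in responders. The Apol genes were among them. Scaled over the libraries of both groups together, Apol11b had medians of 146 CPM on Day 9 and 125 CPM on Day 17 in non-responders, and of 544 and 168 CPM in responders. In non-responders it was lower in 19 of 29 mice (-0.31 ± 0.14, edgeR adjusted p = 0.0802). Its change differed between the groups by -1.26 ± 0.25 (edgeR adjusted p = 0.0112), that of Apol10a by -1.52 ± 0.27 (0.00390) and that of Apol11a by -1.41 ± 0.27 (0.00588). Xpo7 changed by -0.72 in responders and by -0.04 ± 0.10 in non-responders, a difference of -0.68 ± 0.19 that was not called (edgeR adjusted p = 0.0701). Over the red cell list, 18 of 46 genes were called higher and none lower in non-responders, and 3 of 47 had a called difference. Of the chaperone list, 10 of 18 genes were called higher and 2 lower in non-responders, at a median of 0.15. The change was called larger in responders for 4 of the 18, among them Stip1, Hspe1 and Chordc1. These 3 genes, and Fkbp4 and Cacybp, which are not on the list, were called higher in both groups. They rose more in responders, by 0.40 to 0.57. The differences of Hsph1 (0.77 ± 0.24, edgeR adjusted p = 0.104) and Dnaja1 (0.50 ± 0.15, 0.0846) were not called.

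The calls of these differences depended on how the tag series, whose make-up differed between the groups, was handled. With a term for day by tag series 3 of the 13195 genes were called (Atp2b4, Gm18853 and AC158975.2, named after their values were seen), and the Apol genes were not, although all 89 genes kept their sign. Within 4-digit tags alone edgeR called 0 genes, with 448 of 12695 at an unadjusted p under 0.05, and 88 of the 89 kept their sign. Within 3-digit tags 155 were called, 19 of them among the 89. In non-responders with 4-digit tags (6 mice) Apol11b changed by -0.81 ± 0.20 and Apol10a by -0.87 ± 0.26 (edgeR adjusted p = 0.0579 and 0.0902), and in those with 3-digit tags (23 mice) by -0.17 ± 0.15 and -0.06 ± 0.18. Apol10c-ps was called lower in the former (-1.21 ± 0.28, edgeR adjusted p = 0.0433) and not in the latter (-0.17 ± 0.17). The chaperone list had a median change of 0.42 in the former and 0.09 in the latter, beside 0.63 and -0.07 in responders. Without the replicate block for the mouse, 2 genes were called (Wwp2 and Atxn7l3b).

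**Figure D5:**
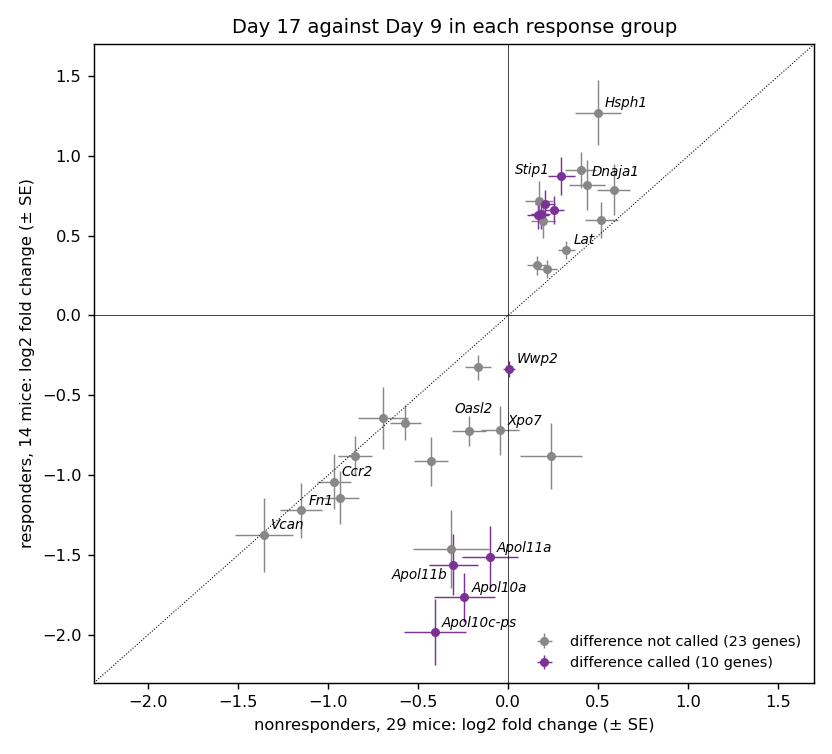
Change from Day 9 to Day 17 of 33 named genes in 29 non-responders (horizontal axis) and 14 responders (vertical axis), in log2 fold change with bars of 1 standard error. Purple points are the 10 genes whose difference between the groups was called, and the dotted line marks equal change. Apol10c-ps and Wwp2 were named only through this test of the difference, which called 0.674% of all genes tested. Fn1, Ccr2 and Vcan lie on the line, the Apol genes far below it and Stip1 above it.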

How the data were processed

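RNA of whole blood was sequenced by the authors from libraries made with the SMARTer mRNA-Seq kit from polyadenylated RNA. The authors deposited estimated counts per gene, which need not be whole, and TPM per gene symbol, which are scaled to a fixed sum in each library with the haemoglobin genes included. The submitters' processing notes name STAR and the build mm10, and the version, the counting tool and the use of strand are not given in the sources used here. All 55450 gene identifiers were found in GENCODE M21, from which positions (GRCm38) were taken, and promoter windows came from RefSeq (GRCm38.p6).

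Counts were rounded, scaled with TMM, filtered with filterByExpr and tested with edgeR 4.0.16 in R 4.3.3 (glmQLFit and glmQLFTest, Benjamini-Hochberg adjustment over all genes tested, adjusted p at most 0.05). The mouse was a block, since the same ear tag on both days marks the same animal. Deviations of the 2 libraries of a mouse correlated by 0.026 on average (-0.19 to 0.39), beside -0.0022 for libraries of different mice, and for 0 of the 14 mice was its own library the best match. The interaction with response was fitted over the libraries of 14 responders and 29 non-responders. The scripts were tested on simulated data.

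Members and the 31 gene lists were chosen with earlier results of these data known. Genes were named by rule: the 12 with the smallest p in each direction at a fold change of at least 1.5, without predicted models, pseudogenes and variable segments; up to 3 called per list and direction; the 5 leading interaction genes; and genes the study names in blood. Some genes that the rule selects are left out here. Alternatives used DESeq2 1.42.0, limma 3.58.1 and Wilcoxon tests, other scaling, filters and designs, each tag series alone, the pair with conflicting labels, and leaving out each mouse.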

Additional observations from a re-analysis of the deposited data

Results flagged for a closer look

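The change from Day 9 to Day 17 differed between responders and non-responders for 15 of the named genes. The test was of the difference itself (edgeR, interaction of day and response, 14 and 29 mice). It called 89 of all 13195 genes tested (0.674%). Apol10c-ps, Gm18853, AC158975.2 and Wwp2 were named only through this test, and Apol10a both through it and through its fall. Their calls thus follow from the way they were named. Values are the change in responders minus the change in non-responders on the log2 scale, with the standard error and the adjusted p. Among Apol genes it was -1.52 ± 0.27 for Apol10a (0.00390), -1.26 ± 0.25 for Apol11b (0.0112), -1.41 ± 0.27 for Apol11a (0.00588) and -1.58 ± 0.30 for Apol10c-ps (0.00588). Among chaperones and their partners it was 0.49 ± 0.11 for Fkbp4 (0.0200), 0.40 ± 0.10 for Cacybp (0.0486), 0.57 ± 0.14 for Stip1 (0.0444), 0.46 ± 0.11 for Hspe1 (0.0383) and 0.45 ± 0.11 for Chordc1 (0.0366). It was -0.81 ± 0.18 for Cd36 (0.0285), -0.72 ± 0.18 for Tpx2 (0.0456) and 0.39 ± 0.10 for Ndufaf4 (0.0397).

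Gm18853, annotated as an unprocessed pseudogene that lies within Gvin1, differed by -1.37 ± 0.20 (edgeR adjusted p = 0.000335). It fell in all 14 responders, from 2.06 to 14.4 CPM on Day 9 to 1.35 to 6.08 CPM on Day 17. Its change in non-responders was 0.06. Reads of Gm18853 and of Gvin1 may not be separable. AC158975.2 differed by -0.37 ± 0.07 and Wwp2, a ubiquitin ligase, by -0.34 ± 0.06 (edgeR adjusted p = 0.00390 each).

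With 1 responder left out at a time, the calls of the Apol genes, Gm18853, AC158975.2 and Wwp2 held in all 14 fits. The call was lost in 1 of these fits for Fkbp4, 3 for Cd36, 6 for Chordc1, 7 each for Stip1, Hspe1 and Ndufaf4, and 9 each for Cacybp and Tpx2 (highest adjusted p between 0.0553 and 0.106, edgeR). With a term for day by tag series, however, the calls were lost for 13 of the 15 genes, the Apol genes, the chaperones and Wwp2 among them, and held for Gm18853 and AC158975.2. Without the replicate block the call of Wwp2 alone held, and within 4-digit tags none of the 15 was called. The share of 4-digit tags differed between the groups (10 of 14 responders and 6 of 29 non-responders).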

How the results depend on the processing

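The count of 953 called genes (395 higher, 558 lower) stayed within 1.5 times without the replicate block (789), also with the unpaired Day 9 library (997), with all 4 days in 1 fit (793), with DESeq2 (1215), other size factors (941), no haemoglobin genes (916), no filter on low counts (770), 10 counts in every library (1040), 4-digit tags alone (1081), limma on TMM-scaled CPM (1003, chosen after seeing the data), the tag series averaged (1134), and the pair with conflicting labels added (1376). Without the block 676 of the 953 were kept, and with DESeq2 933. It moved to 187 (37 higher, 150 lower) with a fold change of at least 1.5, to 149 (13 and 136) in 3-digit tags alone, where 4 mice were tested, and to 593 (249 and 344) with Wilcoxon tests on TMM-scaled CPM, chosen after seeing the data. On TPM, limma called 25 genes (12 and 13) at a pseudocount of 0.1, where the median of all genes shifted by 0.13, and 10 (4 and 6) at a pseudocount of 1. The Wilcoxon test on TPM called 0 (0 and 0), with 749 genes at an unadjusted p under 0.05. The causes were not tested. Leaving out each mouse gave 595 to 1305 genes (251 to 655 higher, 344 to 725 lower), with the lowest counts without responder 9, the most genes and falls without responder 15, and the most rises without responder 1. Of the calls, 41.4% were higher, against 8.72% with 3-digit and 49.7% with 4-digit tags, 19.8% at the fold threshold, 33.2% with the series averaged and 51.9% without responder 1. Among the 84 named genes that were called, only Arhgap17 changed sign under an alternative run: it fell in the 14 pairs but was at 0.0581 and 0.0494 with limma on TPM at the lower and higher pseudocount and at 0.0224 in 3-digit tags. Of these 84 genes, 68 held without the block, 84 with DESeq2, 66 with 4-digit tags, 3 with 3-digit tags, and 66 to 82 without 1 mouse. At the fold threshold 44 held, with Wilcoxon tests on TMM-scaled CPM 60, with limma on TPM 14 and 8 at the lower and higher pseudocount, and with the Wilcoxon test on TPM 0.

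The 89 genes whose change differed between responders and non-responders became 2 without the replicate block, 3 with a term for day by tag series, 443 with DESeq2, 44 with the mouse of conflicting labels as a non-responder, and 31 with a fold change of at least 1.5. Within tag series, added after seeing the data, edgeR called 0 with 4-digit tags (448 at an unadjusted p under 0.05) and 155 with 3-digit tags. Leaving out a responder gave 19 (without responder 10) to 464 genes (without responder 3). The change in haemoglobin share did not pass its test in the 14 pairs (exact sign-flip permutation test, two-sided p = 0.921).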
